A study of Homo sapiens with 8 samples.

Results

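The spectrin and ankyrin genes SPTAN1, SPTBN1, SPTBN4, SPTB, ANK1, ANK2 and ANK3 were examined in lists of RNA regions recovered with METTL3 from 2 human prostate cancer cell lines. A region, or peak, was counted for a gene when it lay whole within the gene's span on GRCh38. By this rule 28 of the 3649 peaks in both lists belonged to the 7 genes, 10 out of 2616 in LNCaP (0.382%) and 18 out of 1033 in PC3 (1.74%). The genes had been picked with the peaks of these same lists in view, so the presence, number, fold and p of their peaks are given as a description, with no test.

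The study immunoprecipitated METTL3 with its bound RNA (RIP-seq) from LNCaP, whose growth responds to androgen, and PC3, which grows without it, and sequenced the IP and an input kept from each lysate. There were 4 groups of 2 replicates, METTL3 IP and input in LNCaP and in PC3, 8 samples in all. No treatment, knockdown or genotype separates the groups, but the growth medium held more serum for LNCaP than for PC3, per the labels' protocols. A portion of lysate was incubated with rabbit IgG, and no IgG library was used here, so background recovery by an antibody is not measured in these values.

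The deposited results are 1 peak list per cell line, with the replicates already combined in a way that is not given in the sources used here. Each value below therefore stands for a whole cell line and has no error between replicates, and the depth is unknown. The fold of a peak is the authors' linear fold enrichment, read as METTL3 IP over input from the design since the file headers name no denominator. Folds and p-values were made separately in each list and are set side by side, not compared by a test. The lists also end at different p-values, 0.0178 in LNCaP and 1.59e-05 in PC3. A peak list shows no expression level. Of the marker genes looked up, KLK3 and KLK2, known from LNCaP, and VIM, CD44 and CAV1, known from PC3, carried 0 peaks in either list, and TMPRSS2 carried 1 in LNCaP.

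Spectrin is a long, flexible rod made of alpha and beta chains that pair side by side and then join end to end, cross-linked by short actin filaments into a lattice under the plasma membrane. Ankyrins fasten this lattice to the membrane by binding beta spectrin on one side and channels, transporters and adhesion proteins on the other. METTL3 is the methyltransferase that adds N6-methyladenosine (m6A) to RNA as part of a larger complex. Recovery with METTL3 in a RIP experiment reports RNA that came down with the protein, not the modification itself.

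SPTAN1 encodes alpha-II spectrin, the alpha chain of nearly all non-erythroid cells. SPTBN1 encodes beta-II spectrin, its most widespread beta partner, SPTBN4 encodes beta-IV spectrin of axon initial segments and nodes, and SPTB encodes the erythroid beta chain. ANK1, ANK2 and ANK3 encode ankyrin-R, ankyrin-B and ankyrin-G, known from red cells, heart and brain, and epithelia and axons, respectively.

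Peaks were found on 3 of the 7 genes. SPTAN1 carried 8 peaks in LNCaP and 12 in PC3. SPTBN1 carried 0 in LNCaP and 6 in PC3. ANK3 carried 2 in LNCaP and 0 in PC3. SPTAN1 was therefore the only member listed in both lines, and the beta spectrin and the ankyrin with peaks were each listed in a different line. SPTBN4 (chromosome 19, 40467001 to 40576464), SPTB (chromosome 14, 64746283 to 64879907), ANK1 (chromosome 8, 41653225 to 41896741) and ANK2 (chromosome 4, 112705622 to 113383736) carried no peak in either list, and none touched their spans.

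Thus 2 of the 7 genes had a peak in LNCaP, 2 in PC3 and 1 in both. Over all 19970 protein-coding genes on chromosomes 1 to 22 and X, 5.62% held a peak in LNCaP, 1.83% in PC3 and 1.16% in both. All 7 genes are long, from 81.1 kb for SPTAN1 to 707 kb for ANK3. Among the 4127 protein-coding genes at least as long as SPTAN1 the shares were 12.2%, 4.09% and 2.3%. The members were chosen from these lists, so nothing is read from their excess over these backgrounds.

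**Figure D1:**
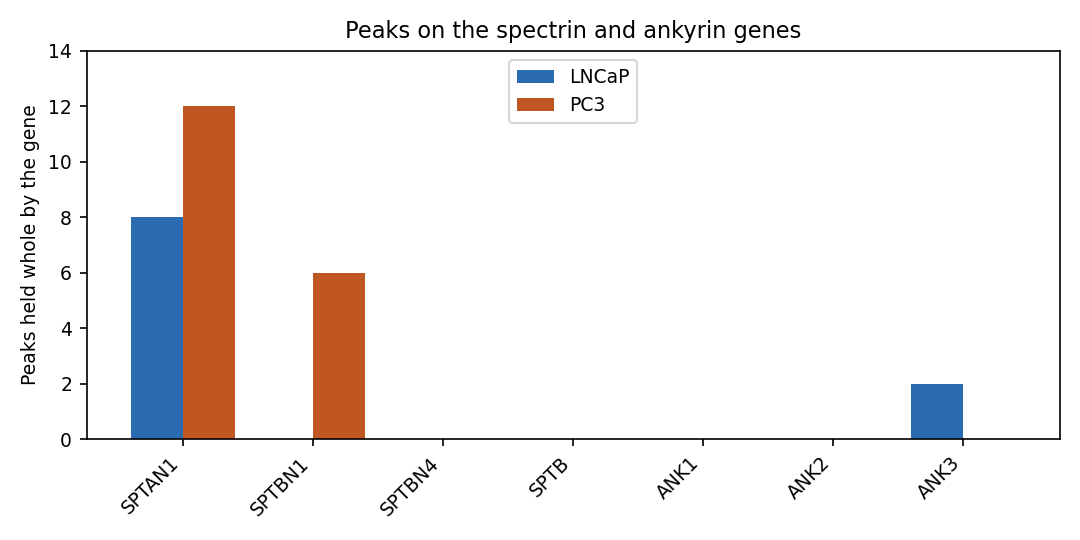
Number of peaks held whole by each gene (vertical axis) in LNCaP (blue) and PC3 (orange), 1 list per line and so without error bars. SPTAN1 has 8 and 12 peaks, SPTBN1 has 6 in PC3 only, ANK3 has 2 in LNCaP only, and 4 members have none.

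SPTBN1 and ANK3 have more than 1 annotated start, so the starts bear on which transcripts can hold a peak. The 30 bases around the start of SPTAN1 and around both starts of SPTBN1 are shown from RefSeq (GRCh38.p14, plus strand), with the first 15 transcribed bases in capitals. They lie at chr9:128552572-128552601, chr2:54456312-54456341 and chr2:54558368-54558397.
SPTAN1 start: ggcgcgcgcgtcgccGCCACTACCCGCTGC
SPTBN1 upstream start: gctgcggattcctccAGTCCCTCCCTCGGC
SPTBN1 downstream start: gcggccgccgcgggcAGCTGGGAGGAGGTG
The 300 bp windows around these starts, 250 bp before and 50 bp after, are rich in G and C, with 78.0% for SPTAN1, 77.3% for the upstream and 69.7% for the downstream SPTBN1 start. No peak of either list overlapped these windows. ANK1 has no entry in the table of starts.

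SPTAN1 (chromosome 9, 128552587 to 128633662, plus strand) carried all of its 20 peaks on its own strand. Peak lengths and coverage, here and below, run from the first to the last base of a peak on the genome. No exon annotation was used, so any intron inside a peak counts as covered and the length of recovered RNA is not known. In PC3 the 12 peaks together covered 51.3 kb, or 63.2% of the gene span, which 12 of the 365 genes with a PC3 peak reached or exceeded, SPTAN1 included. The median over those 365 genes was 6.84%. In LNCaP the 8 peaks covered 8.65 kb, or 10.7% of the span, close to the median of 9.76% over the 1122 genes with a LNCaP peak. The median SPTAN1 peak was 2922.5 bp long in PC3, where 8 of 12 exceeded 1 kb, and 806 bp in LNCaP, where 3 of 8 did.

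In the direction of the gene, the PC3 peaks ran from 16.2 kb after the start to 79.8 kb, which left the first 16.2 kb and the last 1.23 kb without a peak. Their folds, in that order, were 7.90, 15.5, 11.1, 9.93, 6.70, 8.03, 15.0, 10.6, 13.1, 7.46, 13.7 and 12.7, with a median of 10.9. The fold did not climb or fall steadily along the gene. All 12 were above the PC3 list's median fold of 5.74. The strongest by p was the 10434 bp peak at 128583924 to 128594357, at a fold of 11.1 (FDR 1.21e-37), rank 36 of 1033 by p. The longest spanned 12581 bp at 128611813 to 128624393 (fold 13.1, FDR 8.25e-35). The weakest 2 by p, at 128604396 to 128605037 and 128624418 to 128625108, stood at rank 1016 and 1014 of 1033. A single gene therefore held peaks from near the top and from near the bottom of the PC3 list.

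Several peaks were neighbours with hardly a gap. In PC3, in 5 places the next SPTAN1 peak began at most 100 bp after the end of the one before, at 25 bp in 2 of them and in each at a multiple of 25 bp. In LNCaP this was so in 2 places, both at 75 bp, among the 3 peaks between 128615731 and 128621172. With peaks within 25 bp joined, the 18 PC3 peaks of the 7 genes became 14 stretches. This count also drops the minus-strand peak of SPTBN1, whose joined stretch ran past the end of the gene. The count of peaks on a gene is in that sense partly a count of breaks in a stretch.

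The 8 LNCaP peaks on SPTAN1 had folds of 3.73, 4.61, 13.1, 5.29, 2.93, 7.29, 5.65 and 4.81 in the direction of the gene, with a median of 5.05 beside the LNCaP list's 5.26. The high value among them was a 51 bp peak at 128584756 to 128584806, with a fold of 13.1, a p of 1.83e-05 and an FDR of 0.000119. It was at rank 162 of 2616 by fold and 403 by p. The other 7 peaks ranked between 1308 and 2608 by p, from the middle of the LNCaP list to near its end. The peak at 128618081 to 128618918, which had the lowest fold, 2.93 (FDR 0.0162), was at rank 2608 both by fold and by p.

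**Figure D2:**
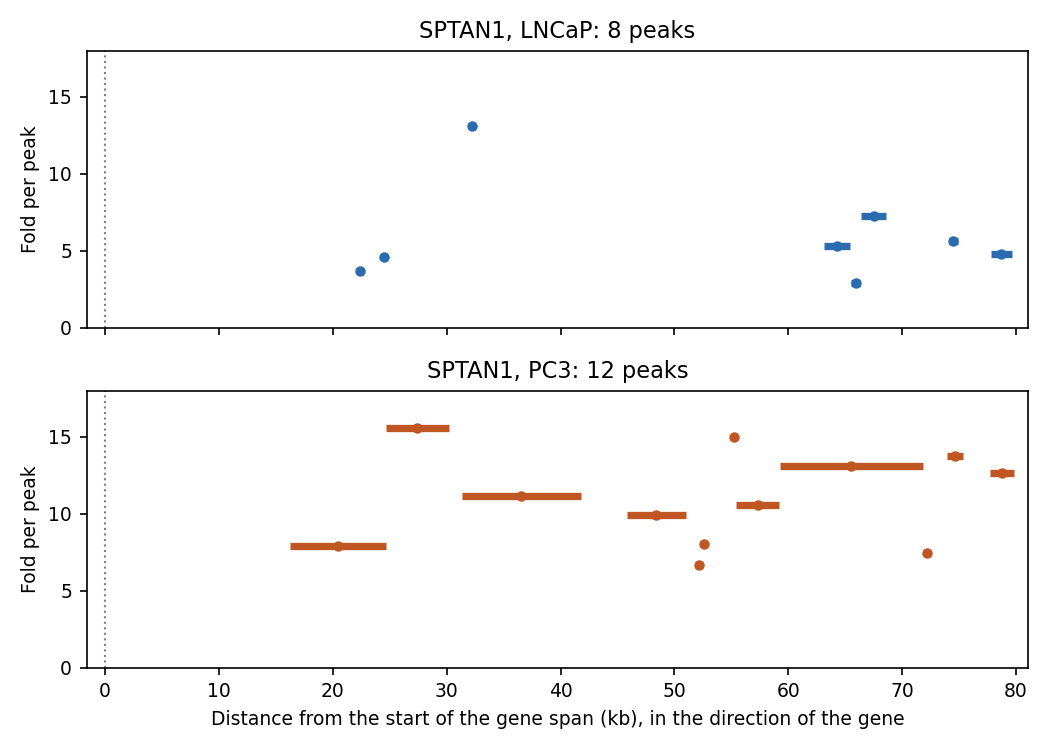
Fold of each SPTAN1 peak (vertical axis, linear) against its place along the gene (horizontal axis, kb from the start of the gene span), for LNCaP (upper panel, 8 peaks) and PC3 (lower panel, 12 peaks); bars span each peak, dots mark midpoints and the dotted line the annotated start. The LNCaP peaks cover 10.7% of the span and leave a stretch of 30.9 kb empty in mid-gene, while the PC3 peaks cover 63.2% of the span.

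Every one of the 8 LNCaP peaks on SPTAN1 lay whole inside a PC3 peak. They fell into 5 PC3 peaks, and the longest PC3 peak held 3 of them. Over the whole LNCaP list 12.7% of peaks lay whole inside a PC3 peak on the same strand, and 34.5% of the 940 LNCaP peaks on genes listed in both lines did. Of the 231 genes with a peak in both lists, 54 (23.4%) had all their LNCaP peaks inside PC3 peaks. SPTAN1 was one of them. The part of PC3 coverage, 63.2% of this gene, in that count was not tested.

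The PC3 fold was higher than the LNCaP fold in 7 of the 8 overlapping pairs. These pairs drew on only 5 PC3 peaks, so some PC3 folds count more than once. The folds were made separately in each list, the same share over all pairs is not given here, and the difference was not tested. At the 3' end of the gene the bounds were close, 128630374 to 128632225 in LNCaP with a fold of 4.81 and 128630324 to 128632432 in PC3 with a fold of 12.7, and the shared bases made up 87.8% of the PC3 peak. The exception was the 51 bp LNCaP peak, with a fold of 13.1 inside a PC3 peak of 10434 bp with a fold of 11.1. These lengths, 51 bp and 10434 bp, are spans on the genome that may take in introns. How the fold of a peak was made, and over what length of RNA, is not given in the sources used here. Whether the folds of this pair can be compared is therefore not known.

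In the PC3 list, 7 SPTAN1 peaks met no LNCaP peak. Their folds ran from 6.70 to 15.5, and those of the 5 peaks that met one from 7.90 to 13.7, so the ranges overlap. Between 32.2 and 63.1 kb from the start, LNCaP had no peak over 30.9 kb, and PC3 had 5 whole peaks there with folds from 6.70 to 15.0. None of the 8 LNCaP peaks reached the p of 1.59e-05 at which the PC3 list ends, although the 51 bp peak came near it.

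SPTBN1 (chromosome 2, 54456327 to 54671446, plus strand) held the peak with the smallest p of the whole PC3 list. It spanned 38657 bp at 54621439 to 54660095, at a fold of 16.3 and an authors' FDR of 8.04e-130. Its p-value in the list was 7.79e-133, and the next smallest was 1.29e-94. By fold the same peak was at rank 32, and by length at rank 20, of 1033. The beta-II chain, partner of alpha-II spectrin, thus had fewer peaks than SPTAN1 in PC3, and a longer one with a smaller p.

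All 5 SPTBN1 peaks on the strand of the gene began after its downstream start, and none lay in the 102 kb between the starts shown above. The first was a 76 bp peak at 54558717 to 54558792, which opened 334 bp after that start, at a fold of 9.58 (FDR 2.38e-08). A 51 bp peak with a fold of 4.61 (54599096 to 54599146) was followed 25 bp later by an 18938 bp peak with a fold of 8.49 (54599171 to 54618108). After the 38657 bp peak came one of 6412 bp at 54662220 to 54668631, at a fold of 11.9 (FDR 1.62e-41). The peak near the downstream start thus stood alone, 40.3 kb before the next one, and the others gathered towards the end of the gene. Which of the transcripts the recovered RNA came from is not resolved by the lists.

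The sixth SPTBN1 peak lay on the minus strand, opposite to the gene. It was 375 bp long, at 54664353 to 54664727, at a fold of 14.3 (FDR 1.51e-33), rank 46 of 1033 both by fold and by p. The antisense RNA gene SPTBN1-AS2 (54664172 to 54680045, minus strand) holds it whole. A second minus-strand peak began 25 bp further on and ran to 54679909, 8463 bp past the end of SPTBN1, so the rule did not count it, and SPTBN1-AS2 holds it too. Its fold was 8.76 and its FDR 1.91e-21. The 375 bp peak lay inside the 6412 bp plus-strand peak of SPTBN1. The library kit kept strand, per the labels' protocols, but how strand was used in calling peaks is not given in the sources used here, so signal of SPTBN1 and of SPTBN1-AS2 cannot be fully told apart at this end.

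Over the PC3 list, 82 of 1033 peaks (7.94%), those on SPTBN1 included, overlapped a peak on the other strand. Where exactly 1 protein-coding gene with a known strand held the peak, 97.5% of LNCaP and 97.0% of PC3 peaks were on the strand of the gene. Of the peaks on the 7 genes, 10 of 10 were in LNCaP and 17 of 18 in PC3.

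**Figure D3:**
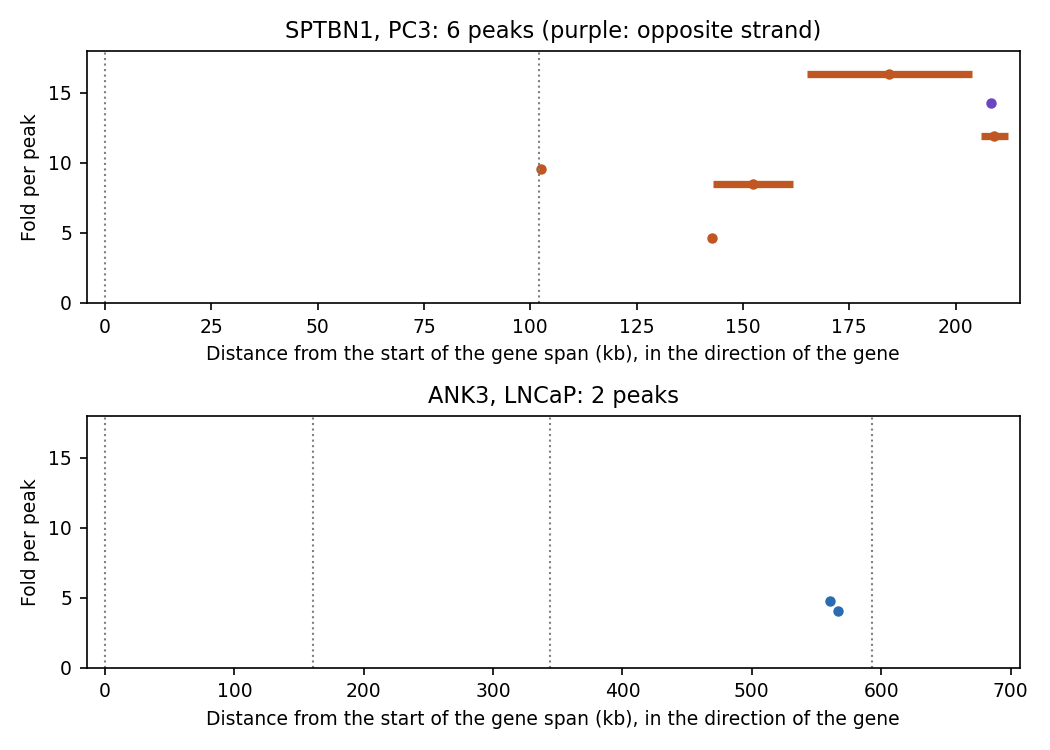
Fold of each peak (vertical axis, linear) against its place along the gene (horizontal axis, kb from the start of the gene span) for SPTBN1 in PC3 (upper panel, 6 peaks) and ANK3 in LNCaP (lower panel, 2 peaks); bars span the peaks, dots mark midpoints, dotted lines the annotated starts, and purple the peak on the opposite strand. The SPTBN1 peaks all follow the downstream start at 102 kb, and both ANK3 peaks lie between the last 2 annotated starts.

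SPTBN1 had no LNCaP peak at all. The LNCaP list admitted p-values up to 0.0178, and the 6 PC3 peaks had p-values of at most 9.37e-07. As p-values were made separately in each list at unknown depth, these limits do not show whether a like recovery would have been listed in LNCaP. Whether SPTBN1 RNA was present at the same level in both inputs is not measured in the lists, and the difference between the lines was not tested.

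ANK3 (chromosome 10, 60026298 to 60733528, minus strand) had its 2 LNCaP peaks close together on the strand of the gene. The first in the direction of the gene was 711 bp long at 60172397 to 60173107, at a fold of 4.79 (FDR 0.0053). The other was 221 bp long at 60166641 to 60166861, at a fold of 4.09 (FDR 0.00797). Both folds were below the LNCaP list's median of 5.26, and by p they were at rank 1872 and 2233 of 2616. The peaks covered 0.132% of the largest of the 7 genes.

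Both ANK3 peaks lay 560 to 567 kb after the start of the span. Of the 4 annotated starts, at 0, 161, 344 and 593 kb, 3 lie before the peaks and 1 after them. A transcript from the most downstream start, shown here from RefSeq (GRCh38.p14, minus strand, chr10:60140726-60140755, the first 15 transcribed bases in capitals), would not contain them.
ANK3 most downstream start: ataactcaggggcttGCATTTATGTCACCA
The p-values of these 2 peaks, 0.0038 and 0.00681, exceed the p at which the PC3 list ends. A PC3 region with such a p would not have been listed. What p a like recovery would have had in PC3 is not known. The absence of ANK3 from the PC3 list therefore cannot show whether the lines differ.

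The member peaks of each line were also set beside their own list. The 10 LNCaP peaks had folds from 2.93 to 13.1 with a median of 4.80, and 4 of them were above the median of their list. The 18 PC3 peaks had folds from 4.61 to 16.3 with a median of 10.9, and 17 were above the median of theirs. By p, 2 of 10 in LNCaP and 13 of 18 in PC3 were on the stronger side of the list's median. In PC3, 8 of the 18 were in the top 10% of the list by fold and 6 by p, against 1 and 0 of the 10 in LNCaP. Each line's peaks were ranked within its own list, and the lists differ in length and in the p-values they admit. The LNCaP set came from SPTAN1 and ANK3 and the PC3 set from SPTAN1 and SPTBN1. Gene, list and line thus cannot be told apart in these sets, and a difference between the lines was not tested.

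**Figure D4:**
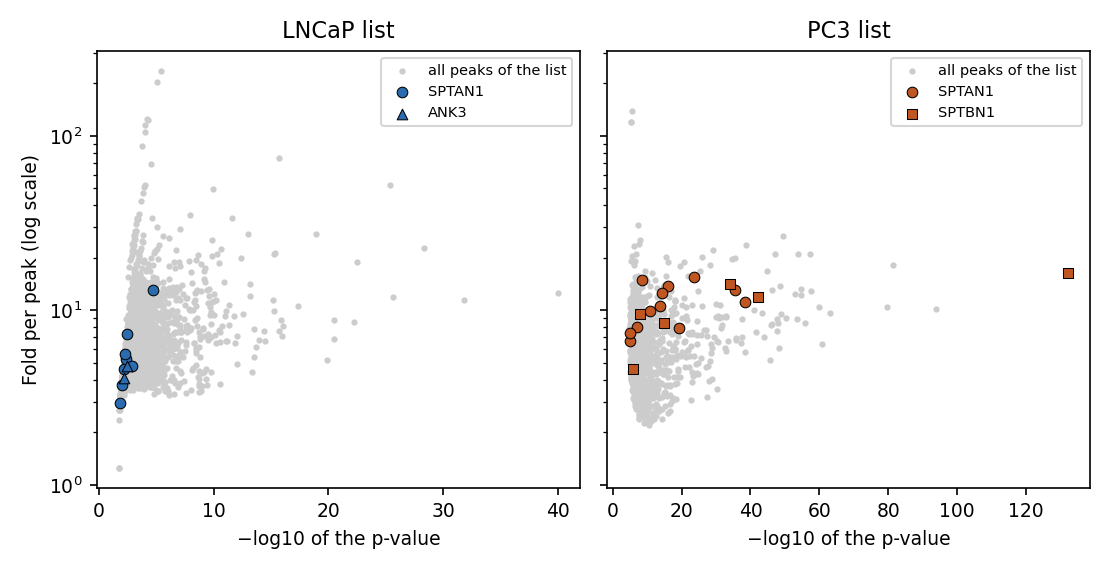
Fold of each peak (vertical axis, log scale) against the negative log10 of its p-value (horizontal axis, a separate range in each panel) for all peaks of the LNCaP list (left, 2616 grey points) and the PC3 list (right, 1033 grey points), with the peaks on SPTAN1 (circles), SPTBN1 (squares) and ANK3 (triangles) in colour. The coloured LNCaP points lie at weak p-values, from 1.83e-05 to 0.0161, and the SPTBN1 peak at 7.79e-133 stands alone at the right of the PC3 panel.

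By place, 7 of 10 in LNCaP (70.0%, 95% Wilson interval 39.7 to 89.2%) and 10 of 18 in PC3 (55.6%, 33.7 to 75.4%) had their midpoint in the last of 3 equal parts of the gene span. Over all peaks held by 1 protein-coding gene with a known strand, 47.0% in LNCaP and 56.7% in PC3 did. Both intervals include the value of the whole list, but they cover counting error only and treat peaks of 1 gene as separate. They therefore cannot decide whether these genes differ from others. The first part of the span held 2 LNCaP peaks and 1 PC3 peak, all on SPTAN1. Most peaks on these genes thus sat in the later parts of the span, and a difference from the peaks of other genes was not tested.

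Between the lines, 8 of 10 member peaks in LNCaP (80.0%) and 5 of 18 in PC3 (27.8%) overlapped a peak of the other list by 1 bp or more on their strand. Over whole lists these shares were 21.3% of LNCaP peaks and 44.4% of PC3 peaks. All of the shared peaks were on SPTAN1. With 50% of both peaks required to be shared, 20.0% of the LNCaP and 11.1% of the PC3 peaks remained, and 0% had identical bounds.

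By number of peaks, SPTAN1 stood high in both lists. In PC3, 8 of the 365 genes with a peak had 12 or more. Among them were AHNAK with 20, DYNC1H1 with 18, FLNA with 16, PLEC with 15, and MUC5B, MYO9B and SPTAN1 with 12 each. In LNCaP, 44 of 1122 genes had 8 or more. These included FLNA, PLEC, DYNC1H1, UTRN and MACF1, which had the most with 23. FLNA encodes a filamin, which cross-links actin, and PLEC and MACF1 encode plakins, large linkers between filament systems.

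The same lookup was made for 37 related genes of the membrane skeleton. Of these, 5 (13.5%) held a peak in LNCaP and 4 (10.8%) in PC3, beside 5.62% and 1.83% of all protein-coding genes. They were chosen with earlier results of these data known, so nothing is read from the excess. Among the 13 counted as ankyrin-bound membrane proteins, 3 had a peak in LNCaP and 1 in PC3. DAG1, which encodes dystroglycan, a membrane receptor that binds the dystrophin complex, had 2 peaks in LNCaP with folds of 4.99 and 6.81, and 3 in PC3 with folds of 9.24, 6.16 and 5.91. As on SPTAN1, both LNCaP peaks of DAG1 overlapped a PC3 peak. SLC4A2, an anion exchanger, had 3 peaks in LNCaP with folds from 4.05 to 6.37 and 0 in PC3.

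Of the 2 dystrophins, 1 had a peak in both lists. UTRN, which encodes utrophin, a spectrin-repeat protein that links actin to dystroglycan, carried 12 peaks in LNCaP with folds from 4.16 to 14.3 and 2 in PC3 with folds of 8.00 and 6.26. Its relative DMD had none. Of 10 genes of the protein 4.1 family, which strengthens the bond between spectrin and actin, and its partners, 0 had a peak in LNCaP and 1 in PC3, EPB41L3, with a fold of 3.15. The 3 adducins, which cap actin filaments and recruit spectrin, and 6 genes of actin caps and filaments had 0 in both lists. These counts stand beside the 5.62% and 1.83% of all protein-coding genes with a peak in LNCaP and in PC3.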

How the data were processed

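RIP-seq of METTL3 was made in LNCaP and PC3, 2 IP and 2 input samples each. The submitters' processing notes name fastp, STAR 2.5.3a, bedtools, deepTools and the build hg38, with no roles. The peak caller, filters and treatment of replicates are not given in the sources used here. Per the file headers, the authors deposited for each peak a linear fold (ratio), a p-value with its FDR, and a score. In every row the FDR equalled the Benjamini-Hochberg adjustment over the listed peaks and the score the negative log2 of the FDR (relative tolerance 1e-06). Such an FDR does not take in regions that were left out of the list, so it is given here only as deposited.

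Peaks were matched to RefSeq gene spans (GRCh38.p14) with Python 3.11.15 and pandas 2.3.3. Gene strand and starts came from the RefSeq table of starts. Peaks that shared at least 1 bp on 1 strand overlapped. The interval functions were tested on simulated peaks. No test was run across genes or peaks. The 7 genes and the related and marker lists were chosen with earlier results of these data known. Named genes are the 7 members, related genes with a peak, and genes with as many peaks as the member with the most; some of these are not reported here. The motif search planned for peaks was not run, as no genome sequence was used.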

Additional observations from a re-analysis of the deposited data

How the results depend on the processing

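Of 67 alternative values, 60 stayed within 1.5 times a count or within the 95% interval of a share or median, and 7 moved. The interval of a median fold is the exact binomial one over peaks. With LNCaP peaks also held to the p of 1.59e-05 at which the PC3 list ends, 0 LNCaP peaks on 0 of the 7 genes were left and the PC3 share overlapping LNCaP became 0%, which follows from the removal of all 10 LNCaP peaks, so no LNCaP fold, place or overlap could be given there. The PC3 counts, folds and places cannot change under that setting. The same holds at an FDR of at most 0.01 and a fold of at least 4, which every PC3 peak on the 7 genes passed. Joined neighbours, the strand of the gene and touching peaks altered no LNCaP peak on these genes, so the LNCaP values were identical there. The tally of 60 thus includes many values that could not move and is no measure of robustness. With 50% of both peaks required, 20% of LNCaP and 11.1% of PC3 peaks overlapped, and with identical bounds 0% and 0%. An FDR of at most 0.01, a fold of at least 4, joined neighbours, the strand of the gene, peaks that only touch the gene, a single holding gene, either strand for overlap, and the end of a peak in place of its midpoint moved no value beyond these limits. Joining gave 14 PC3 stretches.

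No paired analysis was possible because each list is 1 table per cell line without columns for its replicates. Leaving out a replicate was not possible either. The motif search was not run. Depth is unknown, so how far it limits the lists cannot be said.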
